A study of Mus musculus with 6 samples.

Results

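The Toll-like receptors and Cd180 were described in macrophages grown from mouse bone marrow, with and without complement factor H. The genes are every row of the deposited table whose symbol is Tlr followed by a number, plus Cd180. This rule uses symbols only, though the family was picked for description with earlier results of these data known. They were 13 of 753 genes, of which 12 were Toll-like receptors. By where the protein sits, 6 were grouped as surface receptors (Cd180, Tlr1, Tlr2, Tlr4, Tlr5 and Tlr6) and 7 as endosomal receptors (Tlr3, Tlr7, Tlr8, Tlr9, Tlr11, Tlr12 and Tlr13). The knockout group (FHKO, n = 3 libraries) came from mice without factor H, and the control group (n = 3 libraries) from wild-type mice. The protocol attached to all 6 samples gives mice of 8 to 10 weeks, naming knockout and reporter strains but not the wild type, and the labels name no agent added to the cells and no sex. They do not say whether the 3 libraries of a group came from separate animals, so p-values measure the spread between these libraries, which may be technical. The factor H gene had no row in the table used here, so expression could not check the genotype labels.

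Toll-like receptors are membrane proteins that bind conserved parts of microbes and signal through a domain shared with the interleukin-1 receptors. Those at the cell surface bind lipids and proteins of microbes, and those in endosomes bind nucleic acids or, for Tlr11 and Tlr12 of the mouse, a protein of protozoa. Cd180 resembles them outside the cell but lacks the signalling domain, and it is known to modulate Tlr4. Macrophages carry many of these receptors and use them to start the production of cytokines.

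The proximal promoters of 4 receptors are shown. The levels of Tlr8 and Tlr13 spread more over the libraries, and those of Tlr9 and Cd180 spread less. Tlr4 and Tlr7, which also spread widely, had no promoter window in the source used and could not be shown. Each window runs from 250 bases before to 50 bases after a gene start, as given by RefSeq for GRCm38.p6, and is printed 5′ to 3′ on the strand of the gene. Capitals mark GAGGAA or its reverse complement TTCCTC, the core letters bound by PU.1, a transcription factor of myeloid cells. The letters were searched on both strands, and no other motif was searched.
Tlr8, chrX:167264280-167264579, minus strand: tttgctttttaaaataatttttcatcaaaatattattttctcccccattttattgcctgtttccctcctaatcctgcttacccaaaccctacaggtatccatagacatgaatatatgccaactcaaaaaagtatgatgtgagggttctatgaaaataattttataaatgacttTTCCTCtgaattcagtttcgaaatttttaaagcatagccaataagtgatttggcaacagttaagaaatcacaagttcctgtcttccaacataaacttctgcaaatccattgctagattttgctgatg
Tlr13, chrX:106143025-106143324, plus strand: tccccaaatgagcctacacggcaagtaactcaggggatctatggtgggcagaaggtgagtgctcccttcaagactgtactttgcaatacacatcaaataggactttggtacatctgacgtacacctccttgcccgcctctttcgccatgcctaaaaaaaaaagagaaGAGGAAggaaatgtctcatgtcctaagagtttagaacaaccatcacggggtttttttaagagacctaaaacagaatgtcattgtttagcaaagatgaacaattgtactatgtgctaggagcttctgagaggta
Tlr9, chr9:106222348-106222647, plus strand: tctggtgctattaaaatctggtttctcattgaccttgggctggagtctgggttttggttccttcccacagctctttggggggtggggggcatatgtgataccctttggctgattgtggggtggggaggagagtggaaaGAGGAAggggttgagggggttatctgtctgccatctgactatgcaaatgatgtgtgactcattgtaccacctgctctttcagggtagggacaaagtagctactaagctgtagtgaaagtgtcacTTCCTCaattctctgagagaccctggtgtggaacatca
Cd180, chr13:102693297-102693596, plus strand: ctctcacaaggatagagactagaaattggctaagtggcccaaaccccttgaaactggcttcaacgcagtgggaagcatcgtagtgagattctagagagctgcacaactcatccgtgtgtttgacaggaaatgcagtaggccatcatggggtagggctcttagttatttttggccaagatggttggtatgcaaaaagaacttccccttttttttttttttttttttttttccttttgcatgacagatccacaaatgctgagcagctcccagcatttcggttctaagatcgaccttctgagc
Of the 13 genes, 11 had at least 1 window, with 14 windows between them. The motif was in 5 of these 14 windows, in single windows of Tlr1, Tlr8, Tlr9, Tlr11 and Tlr13, and the Tlr9 and Tlr11 windows each held 2 matches. Of all 32851 promoter windows of the same length, 28.3% held it. Tlr3, not shown, spread more than Tlr13 (highest over lowest value 2.25 against 1.85), and its window held no match. These matches describe letters only, and Tlr11, with a match, was at background in these cells.

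RNA was counted per gene and scaled by the authors, and a value is called a normalised count here. Recovered as whole counts, the libraries summed to 717503 to 1348064. Rows that target no mouse gene averaged 8.46 to 15.5 on the same scale, which sets the background. Genes that reached a normalised count of 20 in 3 libraries or more were tested, 490 in all, and 10 of the 13 receptor genes were among them. Of 9 macrophage markers in the table all 9 were tested, and their summed level was 51195 to 54128 in control and 53502 to 56585 in FHKO libraries. Adgre1, which encodes F4/80, stood at 11645 to 13172 and Csf1r, the receptor of the macrophage growth factor, at 5676 to 7393. In bulk RNA such as this, fewer cells of a type and less RNA per cell cannot be told apart.

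Tlr5, the flagellin receptor, and Tlr11 and Tlr12, which bind protozoan profilin in the mouse, were the 3 receptors below the filter. Tlr5 had normalised counts of 10.2, 6.06 and 5.71 in control libraries 1 to 3 and of 9.67, 9.99 and 11.2 in FHKO libraries 1 to 3. Tlr11 had 20.4, 11.1 and 8.57 in control and 8.29, 14.2 and 7.86 in FHKO libraries. Tlr12 had 10.2, 11.1 and 23.8 in control and 6.91, 22.5 and 12.4 in FHKO libraries. In 0 of 6 libraries did any of these 3 genes exceed the mean plus 2 SD of the negative-control rows, so no expression of them was detectable at this depth.

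**Figure D1:**
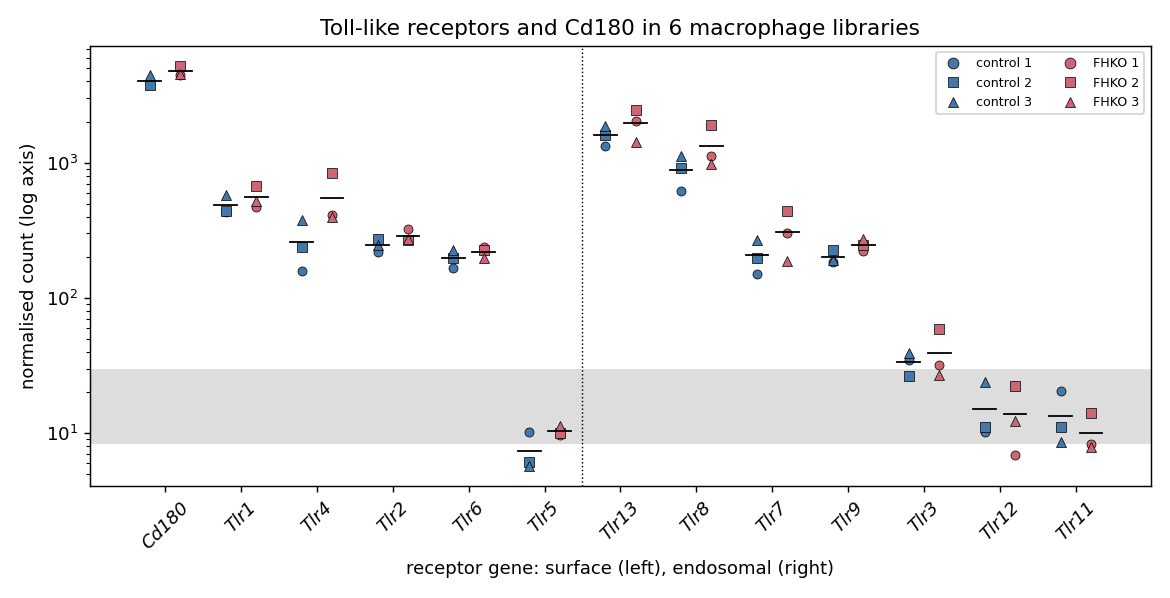
Normalised counts on a log axis of the 13 receptor genes, ordered within surface (left) and endosomal (right) receptors by control mean. Points are libraries, short bars are group means, and the grey band runs from 8.46, the lowest mean of the negative-control rows in a library, to 29.1, the highest mean plus 2 SD. Cd180 is the highest row, and Tlr5, Tlr11 and Tlr12 lie in or below the band.

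The levels of the 10 tested receptors spanned a wide range in both groups. Each gene was counted through its own probe, so the order of levels is an order of probe counts and not of molecules. Cd180, at 4041 ± 400 (control) against 4750 ± 405 (FHKO; SD, n = 3), was the highest of the surface receptors. Tlr13, a mouse sensor of bacterial ribosomal RNA, was the highest of the endosomal receptors, at 1604 ± 279 in control and 1971 ± 510 in FHKO. Tlr8, which senses single-stranded RNA in human cells, followed at 886 ± 252 and 1332 ± 495. The other surface receptors, Tlr1, Tlr4, Tlr2 and Tlr6, had control means of 197 to 485. Tlr7, a sensor of single-stranded RNA, and Tlr9, a sensor of unmethylated CpG DNA, had control means of 206 and 201, within the same range. Among Tlr4, Tlr2, Tlr7, Tlr9 and Tlr6 the control values overlapped, so pooled levels do not resolve their order. Compared within a library, Tlr2 lay above Tlr6 in all 6 libraries (log2 ratio 0.13 to 0.48). It lay above Tlr9 in the control libraries (0.25 to 0.38). Tlr3, the receptor of double-stranded RNA, was the lowest tested receptor, at 33.4 ± 6.51 in control and 39.3 ± 17.3 in FHKO macrophages. Its whole counts of 23 to 71 lay above the mean plus 2 SD of the negative-control rows in all 6 libraries, though close to it in some.

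Tlr4, the receptor of bacterial lipopolysaccharide, had the largest difference of the 10 tested receptors. Its normalised counts were 159, 238 and 377 in control libraries 1 to 3 and 408, 842 and 395 in FHKO libraries 1 to 3. The 3 FHKO values lay above the 3 control values, but control 3 was close to FHKO 1 and FHKO 3, while control 1 was lowest and FHKO 2 was highest. The counting intervals of control 3 (exact Poisson, 341 to 416) and FHKO 3 (355 to 439) overlapped, and such intervals cover counting error only. The group means were 258 ± 111 and 548 ± 255 (SD, n = 3). The difference was 1.08 on the log2(value + 1) scale, with a standard error of 0.39 and a 95% interval of 0.18 to 1.99. It did not pass the threshold (limma, adjusted p = 0.169). Without FHKO 2 the log2 difference was 0.72, and without control 3 it was 1.40 (limma, adjusted p = 0.305 and 0.0910). The highest Tlr4 value was 5.31 times the lowest, against a median of 1.49 times over the 490 tested genes. In that ratio 5 tested genes, Tlr4 included, were at or above Tlr4.

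Of the 10 tested receptors 0 passed an adjusted p of 0.05 in limma, and over all 490 genes 1 did (0.204%). At an unadjusted p under 0.05, 1 receptor, Tlr4, was higher in FHKO and 0 were lower, whereas 19.0% of all tested genes were higher. All FHKO values lay above all control values in 1 of the 10 receptors, again Tlr4, and in 22.9% of all tested genes. The difference between these shares was not tested. All 10 log2 differences were above 0 with the deposited scaling, as were 71.8% of all tested genes. Their median was 0.26, and that of all tested genes was 0.16. By the values, and not by any protocol, the deposited scaling fixed 16 reference genes out of 20, whose mean log2 value had an SD of 6.82e-06 between libraries. Setting the library medians equal instead lowered log2 differences by a median of 0.29. With that scaling 4 of the 10 receptors stayed above 0 (Tlr4, Tlr7, Tlr8 and Tlr9), as did 30.8% of all tested genes.

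**Figure D2:**
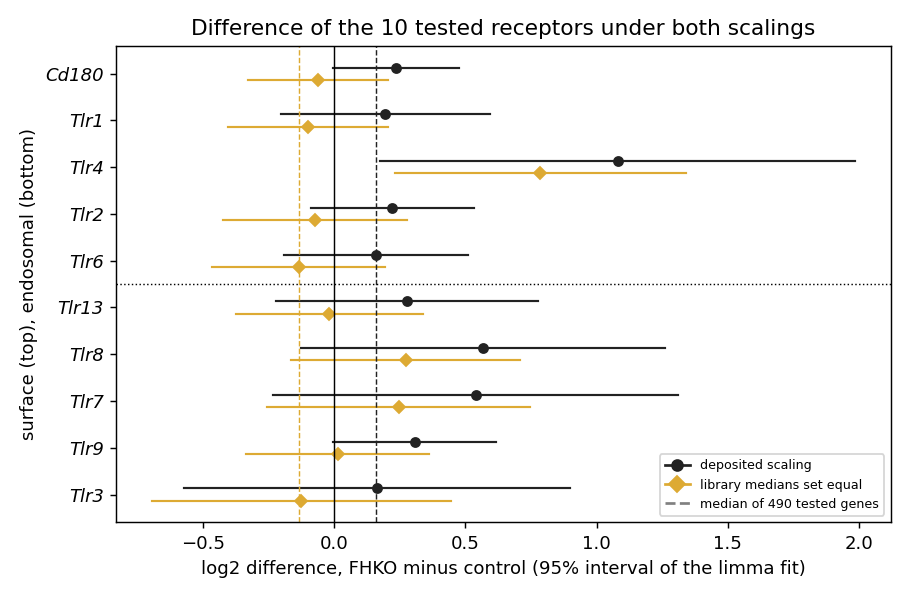
Log2 difference, FHKO minus control, of the 10 tested receptors with 95% intervals from the limma fit. Black circles use the deposited scaling and yellow diamonds use library medians set equal, and dashed lines mark the median of the 490 tested genes under each (0.16 and -0.13). The interval of Tlr4 stays above 0 under both, with unadjusted bounds, and the other 9 intervals include 0.

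The other surface receptors differed little between the groups. Cd180 was at 3874, 3751 and 4497 in control libraries 1 to 3 and at 4474, 5215 and 4561 in FHKO libraries 1 to 3. Control 3 lay just above FHKO 1, so the groups overlapped. The log2 difference of Cd180 was 0.23 ± 0.10 (standard error; limma, adjusted p = 0.218), and it turned to -0.06 with library medians set equal. Tlr2, which pairs with Tlr1 or Tlr6 to bind bacterial lipoproteins, was at 220, 274 and 248 in control and 325, 267 and 274 in FHKO libraries. The groups overlapped, and the log2 difference of Tlr2 was 0.22, with a 95% interval of -0.09 to 0.53 (limma, adjusted p = 0.323). Its partners Tlr1 and Tlr6 had log2 differences of 0.20 and 0.16 (limma, adjusted p = 0.494 and 0.518). With library medians set equal, Tlr2, Tlr1 and Tlr6 had -0.07, -0.10 and -0.13. The ratio of Tlr2 to Tlr6 within a library differed by 0.06 between the groups, and that of Tlr1 to Tlr2 by -0.03, both less than the spread between replicates. Tlr1 and Tlr6 are neighbours on chromosome 5, with 0 protein-coding genes between their starts.

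Among the endosomal receptors, Tlr7 and Tlr8 had the largest differences, and neither passed the threshold. Tlr8 was at 621, 916 and 1122 in control libraries 1 to 3 and at 1119, 1899 and 979 in FHKO libraries 1 to 3. Tlr7 was at 151, 199 and 268 in control and at 301, 439 and 189 in FHKO libraries. In both genes control 1 was lowest, FHKO 2 was highest, and the remaining libraries of the groups overlapped. The log2 differences were 0.57 and 0.54, with standard errors of 0.29 and 0.33 (limma, adjusted p = 0.288 and 0.333). Without FHKO 2 they were 0.28 for Tlr8 and 0.25 for Tlr7. Tlr7 and Tlr8 are neighbours on chromosome X, with 0 protein-coding genes between their starts. The within-library log2 ratio of Tlr7 to Tlr8 was -2.10 ± 0.09 (control) and -2.12 ± 0.24 (FHKO; SD, n = 3), a difference of -0.03 (exact two-sided permutation test, p = 0.800). Each was the other's nearest receptor in profile.

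Tlr13, also on chromosome X, was at 1325, 1606 and 1883 in control and at 2032, 2449 and 1434 in FHKO libraries. FHKO 3 lay within the control values, and the log2 difference was 0.28 (limma, adjusted p = 0.435), or -0.02 with library medians set equal. Without FHKO 2 the difference of Tlr13 was 0.10, and without FHKO 3 it was 0.49. Tlr9 was at 185, 226 and 191 in control and at 224, 248 and 274 in FHKO libraries. Only control 2 lay above the lowest FHKO value. The log2 difference of Tlr9 was 0.31 ± 0.13 (standard error; limma, adjusted p = 0.217), and it was 0.01 with library medians set equal. Tlr3 was at 34.9, 26.3 and 39.0 in control and at 31.8, 59.1 and 27.0 in FHKO libraries, so its highest value came from FHKO 2 alone. Its log2 difference of 0.16 (limma, adjusted p = 0.760) turned to -0.17 without FHKO 2.

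Values within a group spread unevenly between the receptors. On the log2 scale the SD within control and FHKO libraries was 0.62 and 0.62 for Tlr4, 0.41 and 0.61 for Tlr7, and 0.43 and 0.50 for Tlr8. It was 0.16 and 0.14 for Tlr9, 0.16 and 0.15 for Tlr2, and 0.14 and 0.12 for Cd180. Control 1 was the lowest library in 8 of the 10 tested receptors, against 34.5% of all tested genes. FHKO 2 was the highest library in 7 of the 10, against 41.2% of all tested genes. Both held in 5 receptors (Tlr1, Tlr4, Tlr7, Tlr8 and Tlr13), against 23.5% of all tested genes. The library median of the tested genes was also lowest in control 1 (225) and highest in FHKO 2 (322), and FHKO 2 had the largest sum of counts. The part of these library differences in the receptor values was not tested.

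**Figure D3:**
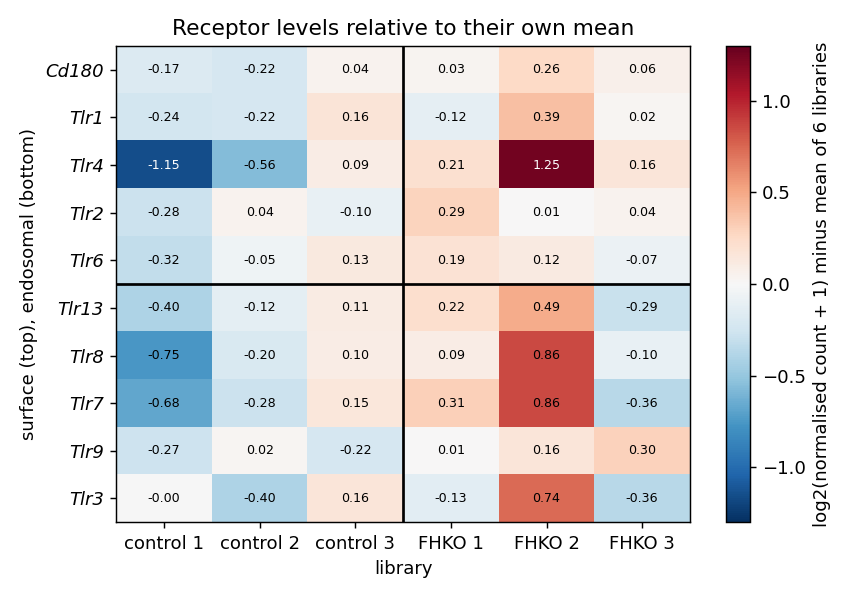
Each cell is log2(normalised count + 1) of a receptor in a library minus that receptor's mean over the 6 libraries, with surface receptors above the line and endosomal receptors below it. Tlr4 runs from -1.15 in control 1 to 1.25 in FHKO 2, and Tlr8 from -0.75 to 0.86, while Cd180, Tlr2, Tlr6 and Tlr9 stay within 0.32 of their mean.

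Whether surface and endosomal receptors differ from each other was asked with the ratio of a pair of receptors within a library, which does not depend on scaling apart from the pseudocount. All 45 pairs of the 10 tested receptors were compared, with 3 libraries per group, and the smallest p that this design allows is 0.1. The groups did not overlap in 6 pairs, and Tlr4 was in all 6. These 6 pairs reuse the Tlr4 values, so they are not 6 separate results. By itself, Tlr4 had all FHKO values above all control values, as in 22.9% of all tested genes. Any pair with separate groups has a p of 0.1 in the exact two-sided permutation test of this design. The share of separate pairs over all tested genes was not computed. Relative to the 4 other surface receptors, Tlr4 was higher in FHKO by 0.85 to 0.92 on the log2 scale. Relative to the 5 endosomal receptors it was higher by 0.51 to 0.92. Without FHKO 2 the differences were 0.67, 0.45, 0.59 and 0.56 against Tlr1, Tlr2, Tlr6 and Cd180, and 0.42 to 0.89 against the endosomal receptors. The log2 ratio of Tlr4 to Tlr8 was -1.96, -1.94 and -1.57 in control libraries 1 to 3 and -1.45, -1.17 and -1.31 in FHKO libraries 1 to 3. The FHKO ratios all lay above the control ratios (exact two-sided permutation test, p = 0.1, adjusted p = 0.750 over the 45 pairs). The ratio of Tlr4 to Cd180 differed by 0.85, and its groups did not overlap either (exact two-sided permutation test, p = 0.1, adjusted p = 0.750). Against Tlr9, Tlr2 and Tlr7 the groups overlapped (exact two-sided permutation test, p = 0.3, 0.3 and 0.2), and the differences were 0.77, 0.86 and 0.54. In the 36 pairs without Tlr4 the groups overlapped, with differences of -0.41 to 0.33. The median log2 difference was 0.22 over the 5 tested surface receptors and 0.31 over the 5 tested endosomal receptors, and no test was made of these medians. Of the 6 pairs with separate groups, 3 set Tlr4 against surface receptors (Tlr1, Tlr6 and Cd180) and 3 against endosomal receptors (Tlr3, Tlr8 and Tlr13).

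**Figure D4:**
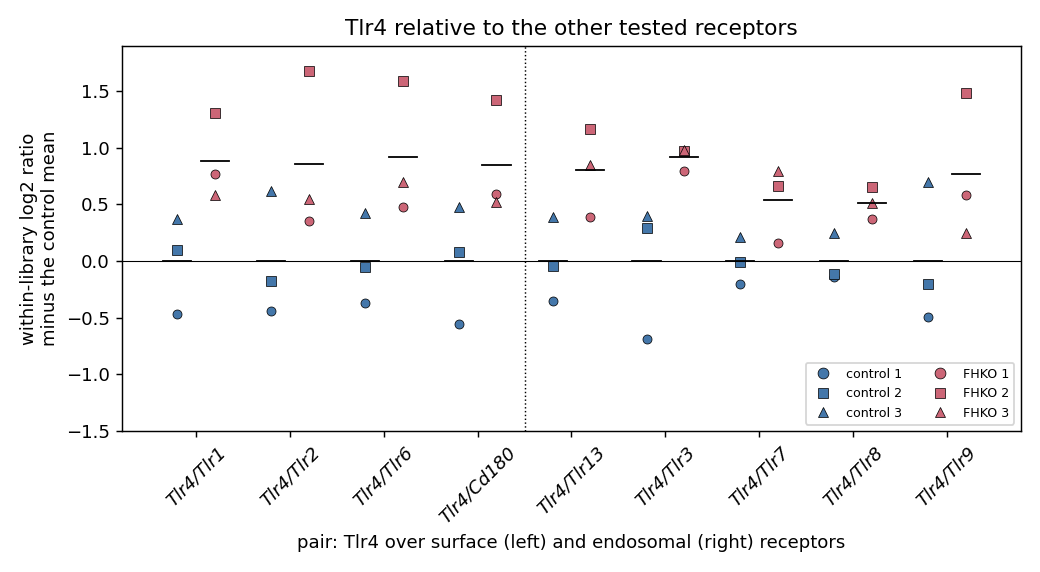
Within-library log2 ratio of Tlr4 to each of the other 9 tested receptors, minus the control mean of that ratio, with surface receptors on the left and endosomal receptors on the right. Points are libraries and short bars are group means. FHKO means lie 0.51 to 0.92 above control, and the groups are apart in 6 of the 9 pairs. All 9 pairs reuse the Tlr4 values.

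The genes most like each receptor were those with the smallest root mean square difference between profiles centred on their means over the 6 libraries. For Tlr4 these were Ccr2, a chemokine receptor of monocytes (0.10 on the log2 scale), Itga4, an integrin alpha chain (0.12), and Gnai3, an inhibitory G protein subunit (0.16). Ccr2 was at 98.9, 159 and 205 in control and at 238, 510 and 256 in FHKO libraries, with the same lowest and highest libraries as Tlr4. For Tlr8 they were Cybb, a subunit of the phagocyte NADPH oxidase (0.11), and the proliferation genes Top2a and Ttk (0.13 and 0.13). Ttk, Cybb and Cd84 were nearest to Tlr7 (0.10, 0.17 and 0.17), and Birc2, Rictor and Il1b to Tlr13 (0.06, 0.10 and 0.11). Cd180 was nearest to Bcl10, S100a10 and Jag1 (0.04 to 0.05). Enc1, Ifnar2 and Cd83 were nearest to Tlr9 (0.05 to 0.08). The others were B4galt4, Map2k4 and Ikbke for Tlr1, Gpr183, C3ar1 and H2-M3 for Tlr2, Anxa1, Mmp12 and Cd74 for Tlr3, and Cd86, Btg2 and Ifnar1 for Tlr6. Cd86 lay 0.02 from Tlr6, the closest of these profiles, though at a normalised count of 29.1 to 40.1.

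Markers of other cells were read beside these values. The 3 monocyte markers described here had a summed level of 774 to 1093 in control and 1557 to 1580 in FHKO libraries. Cx3cr1 gave most of that sum. The log2 differences of Cx3cr1, Ccr2 and Nr4a1 were 0.61, 1.09 and 0.65 (limma, adjusted p = 0.138, 0.148 and 0.217). Of the FHKO libraries, FHKO 2 was highest in Ccr2, as in Tlr4, but lowest in Cx3cr1 (1001) and Nr4a1 (45.8). Of the control libraries, control 1 was lowest in Ccr2 and Cx3cr1, as in Tlr4, but highest in Nr4a1 (53.8). The part of monocyte-like cells in the Tlr4 difference was not tested. Both B cell markers in the table, Ms4a1 and Fcer2a, stood at 8.32 to 22.5, at or near background, and B cells are known for Cd180 and Tlr9. Plasmacytoid dendritic cells are known for Tlr7 and Tlr9. Their 3 markers in the table (Ccr9, Il3ra and Irf7) summed to 606 to 769 in control and 605 to 684 in FHKO. Il3ra, at 412 to 604, gave most of that sum, and which cells its RNA came from was not tested. Ccr9 stood at 22.1 to 30.3, against 16.5 to 29.1 for the mean plus 2 SD of the negative-control rows. Of 5 markers of conventional dendritic cells, Batf3 stood at 37.3 to 50.9, and Ccr7, Clec9a, Flt3 and Xcr1 at 5.05 to 18.2. The 9 neutrophil markers in the table summed to 486 to 551 in control and 404 to 553 in FHKO. S100a8, Mmp9 and Csf3r gave most of that sum, and Camp, Cxcr2, Elane, Ly6g and Mpo missed the filter. No marker of T or NK cells had a row in the table used here.

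Genes that act with the receptors were described from 5 lists, in which 0 members passed limma's threshold. At an unadjusted p under 0.05, Hmgb1, Map2k1, Nfkbiz and Nfkb1 were higher in FHKO and Atf3 was lower. These were 4 higher and 1 lower of 40 tested members, and 19.0% of all tested genes were higher at that level. The share of all tested genes that were lower was not computed. Of 9 accessory proteins and ligands listed, 3 were tested, and the groups of 1, Hmgb1, did not overlap. All its FHKO values lay above all control values, as in 22.9% of all tested genes. Hmgb1, a nuclear protein that can act on Tlr4 when released, was at 209 ± 88.7 (control) against 454 ± 197 (FHKO; SD, n = 3), with a log2 difference of 1.13 (limma, adjusted p = 0.169). Cd14, the co-receptor that hands lipopolysaccharide to Tlr4, averaged 3387 ± 179 and 3552 ± 102, and its log2 difference was 0.07 (limma, adjusted p = 0.584). The scavenger receptor Cd36, a partner of Tlr2, had a log2 difference of 0.04.

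Of 9 tested adaptors and kinases, 7 had log2 differences above 0, near the 71.8% of all tested genes, and 4 lay above the median gene. With library medians set equal 0 of the 9 were above 0, against 30.8% of all tested genes. Myd88, the adaptor of nearly all Toll-like receptors, was at 516 ± 34.5 (control) against 491 ± 10.3 (FHKO; SD, n = 3). Its log2 difference was -0.07 (limma, adjusted p = 0.669). Map2k1, Map2k4 and Traf6, which carry the signal to MAP kinases and NF-kB, had the smallest p of the list, with log2 differences of 0.29, 0.29 and 0.20. All 3 were below 0 with library medians set equal (-0.005, -0.003 and -0.096). The median of the list was 0.15, near the 0.16 of all tested genes.

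Of 6 tested genes listed as inhibitors 4 were above 0, against 71.8% of all tested genes, and the median was 0.19. With library medians set equal 1 was above 0, against 30.8% of all tested genes, and the median was -0.10. Atf3, a repressor induced by receptor signalling, was at 4926 ± 392 (control) against 4059 ± 271 (FHKO; SD, n = 3), with a log2 difference of -0.28. Nfkbiz, which encodes a nuclear regulator of NF-kB, and Nfkbia, which encodes a cytoplasmic inhibitor of it, had 0.48 and 0.28. For Atf3, Nfkbiz and Nfkbia the limma adjusted p was 0.148, 0.148 and 0.226, and with library medians set equal the differences were -0.57, 0.19 and -0.01. Of 8 tested transcription factors 5 were above 0, against 71.8% of all tested genes, and 1, Nfkb1, lay above the median gene, at 0.32 (limma, adjusted p = 0.155). Under median scaling 1 of the 8 was above 0, against 30.8% of all tested genes, and the median was -0.24. Irf1 and Irf5 had -0.13 and 0.08. Irf7, which drives interferon genes after endosomal signalling, averaged 135 ± 17.7 and 133 ± 26.8, and its log2 difference was -0.03.

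Of 20 cytokines, chemokines and other products of receptor signalling 14 were tested, and 11 of them had log2 differences above 0, near the 71.8% of all tested genes. With library medians set equal 3 of them were above 0, against 30.8% of all tested genes. Their median was 0.21, or -0.08 with that scaling. Cxcl2, Cd40 and Tnf had the smallest p, with log2 differences of 0.36, 0.33 and 0.19 (limma, adjusted p of 0.218, 0.293 and 0.309). Under median scaling these were 0.07, 0.04 and -0.11. The 6 that missed the filter were Cxcl1, Ifnb1, Il12a, Il12b, Il1a and Il6, with normalised counts of 1.12 to 18.9, at or near background in both groups. Il1b, a product of activated macrophages, was low as well, at 32.0 to 52.4 over the 6 libraries. The list was not low throughout. Ccl3 stood at 1197 to 1686, Ccl2 at 912 to 1834, Tnf at 266 to 340 and Ccl4 at 141 to 287.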

How the data were processed

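The deposited table held normalised probe counts, a signal per gene, for 6 libraries, and groups came from the sample titles. The authors' deposited signal was, by the values themselves, a whole count times 1 factor per library: 99.7% of values were whole multiples within 0.0051. Platform, software and scaling method are not given in the sources used here. Count models were not run, since that step was 1.01 in control 2, and control 3 and FHKO 2 had 3 and 2 values at a floor of 1. The library sums, counting intervals and replicate noise given here use the recovered counts and share that limit.

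Genes at 20 or more in at least 3 libraries (490 of 753) were fitted as log2(value + 1) with limma 3.58.1 (lmFit, eBayes with trend) in R 4.3.3, and p-values are two-sided, Benjamini-Hochberg adjusted over all 490. Log2 differences are FHKO minus control and understate the change of low genes. The fit was tested on simulated data. Pairs were compared by exact permutation.

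The members, lists and tests were chosen with earlier results of these data known. Named genes were all members, the 3 nearest profiles per tested member, and the 3 smallest p per list. Myd88, Irf7, Il1b, Ccl2, Ccl3, Ccl4, the listed genes below the filter and the cell markers were named beyond that rule, after values were seen. Some listed genes had no row in the table and were not analysed here. A monocyte marker of the plan is not reported here. Counts of replicate libraries differed beyond counting error (chi-square divided by its degrees of freedom, 10.9 to 37.6), so no library was merged. All 13 symbols matched RefSeq (GRCm38.p6). Alternatives were a replicate block, leaving out each library, other scalings, pseudocounts, filters and eBayes settings. Figures used matplotlib 3.10.9.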

Additional observations from a re-analysis of the deposited data

How the results depend on the processing

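The number of tested receptors past the threshold was 0 under all 15 alternatives run, with the smallest limma adjusted p, that of Tlr4, at 0.0910 without control 3 and 0.0911 with library medians set equal. Over all genes the count was 1, and it became 14 with library medians set equal, 0 with the replicate number as a block, and 0 to 3 when 1 library was left out. Tlr4, Tlr7, Tlr8 and Tlr9 kept their direction under every alternative, with log2 differences of 0.72 to 1.40, 0.25 to 0.86, 0.27 to 0.76 and 0.01 to 0.40. The replicate block, the filters and the eBayes setting cannot change a log2 difference here, so they do not check direction. With library medians set equal, the log2 differences of Tlr1, Tlr13, Tlr2, Tlr3, Tlr6 and Cd180 turned to -0.10, -0.018, -0.072, -0.12, -0.13 and -0.061, since that scaling lowers log2 differences by a median of 0.29. Quantile normalisation turned Tlr1, Tlr2 and Tlr6 to -0.030, -0.050 and -0.13. Leaving out 1 library gave Tlr3 log2 differences of -0.17, without FHKO 2, to 0.39, without FHKO 3, and the cause was not tested. With 1 library left out, Tlr13 ranged from 0.10 to 0.49, Tlr1 from 0.05 to 0.33, Tlr6 from 0.04 to 0.27, Tlr2 from 0.13 to 0.30 and Cd180 from 0.17 to 0.31. The FHKO minus control differences of the within-library log2 ratios of Tlr4 to the other 9 receptors stayed above 0 in each alternative run. The replicate block cannot change these ratio differences. Same-numbered libraries had correlations of deviations of 0.26, -0.03 and -0.29, and differently numbered libraries had -0.45 to 0.53. Deviations within a group of 3 sum to 0, so this check cannot decide whether the replicate numbers pair the libraries. With the block Tlr4 had a limma adjusted p of 0.145. The count models listed as alternatives were not run. Tlr5, Tlr11 and Tlr12, at background, cannot be compared at this depth, and Tlr3 rests on 23 to 71 counts per library. With 3 libraries per group an exact test cannot go below 0.1.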
